A study of Danio rerio with 6 samples.

Results

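The BCL2 family genes described here are 10 zebrafish genes of mitochondrial apoptosis, chosen by symbol: *bbc3*, *pmaip1*, *bida*, *bcl2l11*, *bada*, *baxa*, *baxb*, *mcl1a*, *mcl1b* and *bcl2l1*. All 10 were in the deposited table of 21769 genes, under 11 gene IDs, since *baxa* stood there under 2 IDs. RNA-seq compared 3 libraries of wild-type siblings with 3 libraries of *dhx38* mutants, all from AB embryos aged 36 hours after fertilization (hpf). *dhx38* encodes an RNA helicase of the splicing machinery. The mutation itself is not described in the labels, which write the genotype dhx38-- for mutant replicate 1 and dhx38-/- for mutant replicates 2 and 3. The tissue is called tail in one label and trunk in another, and the labels do not say if the 3 libraries of a group stand for separate clutches. The p-values then cover the spread among these libraries, which may be technical.

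The BCL2 family decides whether the outer mitochondrial membrane is opened in a stressed cell. BH3-only proteins are the sensors: they bind and neutralise pro-survival relatives or activate the pore-forming proteins of the BAX type. Once these oligomerise, cytochrome c and Diablo leave the mitochondrion, the Apaf1 apoptosome forms, and caspases are activated. Part of the control is transcriptional, and *bbc3* (Puma) and *pmaip1* (Noxa) are textbook examples of death genes induced by stress. In human cells, BCL2L1 and MCL1 transcripts are also spliced into long, pro-survival and short, pro-death forms. The deposited values are per gene and do not separate such forms.

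The values are normalized CPM, reads per 1 M scaled by the authors, and are not corrected for gene length, so levels are compared between libraries and not between genes. Depth read from the spacing of low values was 19.5 to 37.7 M reads per library, and replicate 3 of both groups was the shallower. A count of 3 reads corresponded to 0.0776 to 0.164 normalized CPM. Each gene was tested as log2(value + 1) with limma over all 21769 genes with Benjamini-Hochberg adjustment, and was called at an adjusted p under 0.05. Libraries with the same replicate number deviated together. The fit with the replicate number as a block is therefore given wherever it changes the call of a gene named here. In bulk tissue, fewer cells of a type and less RNA per cell cannot be told apart. Summed levels of some tissue markers stood apart between the groups. The summed level of 7 fast muscle genes was 20004 to 22927 normalized CPM in siblings and 11231 to 15715 in mutants. For 6 genes of neurons and neural progenitors it was 1224 to 1267 and 717 to 993, and for 9 head, eye and lens genes 770 to 1094 and 363 to 925. For 8 posterior Hox and tail bud genes it was 47.9 to 77.9 and 41.4 to 77.7, and for 6 genes of neutrophils and macrophages 73.5 to 143.7 and 57.97 to 102.5. None of these markers was listed at 0 in all libraries, so head markers were present in tissue labelled tail, and by limma 0 of the 36 passed, with 12 lower at an unadjusted p under 0.05, where 10.7% of all genes were. With the replicate block 15 of the 36 were lower, where 6.87% of all genes were. When a pseudocount of 0.1 was used as well, limma called 0 of the 36 (20 had an unadjusted p under 0.05). In that fit 5988 of all 21769 genes had an unadjusted limma p under 0.05. The part of these marker differences in the results below was not tested.

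Of the 10 members, *bbc3* rose in the mutants and the other 9 did not pass the threshold. Over all genes 1.70% passed, 1.41% higher and 0.285% lower in the mutants. *baxa* missed the threshold narrowly on the higher side. *bida*, *bcl2l11*, *mcl1a*, *mcl1b* and *baxb* had lower means in the mutants, *baxb* only slightly. *bcl2l11*, *mcl1a*, *pmaip1*, *bada*, *baxb* and *bcl2l1* overlapped between the groups. The groups did not overlap for 4 of the 10 genes, 2 higher (*bbc3*, *baxa*) and 2 lower (*bida*, *mcl1b*), where 27.1% of all genes did not overlap, 13.3% higher and 13.8% lower. With the replicate block 3 of the 11 IDs rose (*bbc3* and both *baxa* IDs) and 2 fell (*bida* and *mcl1a*), where 6.85% of all genes passed as higher and 6.87% as lower. The median log2 fold change of the 10 members was 0.02, against -0.01 over all genes.

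**Figure D1:**
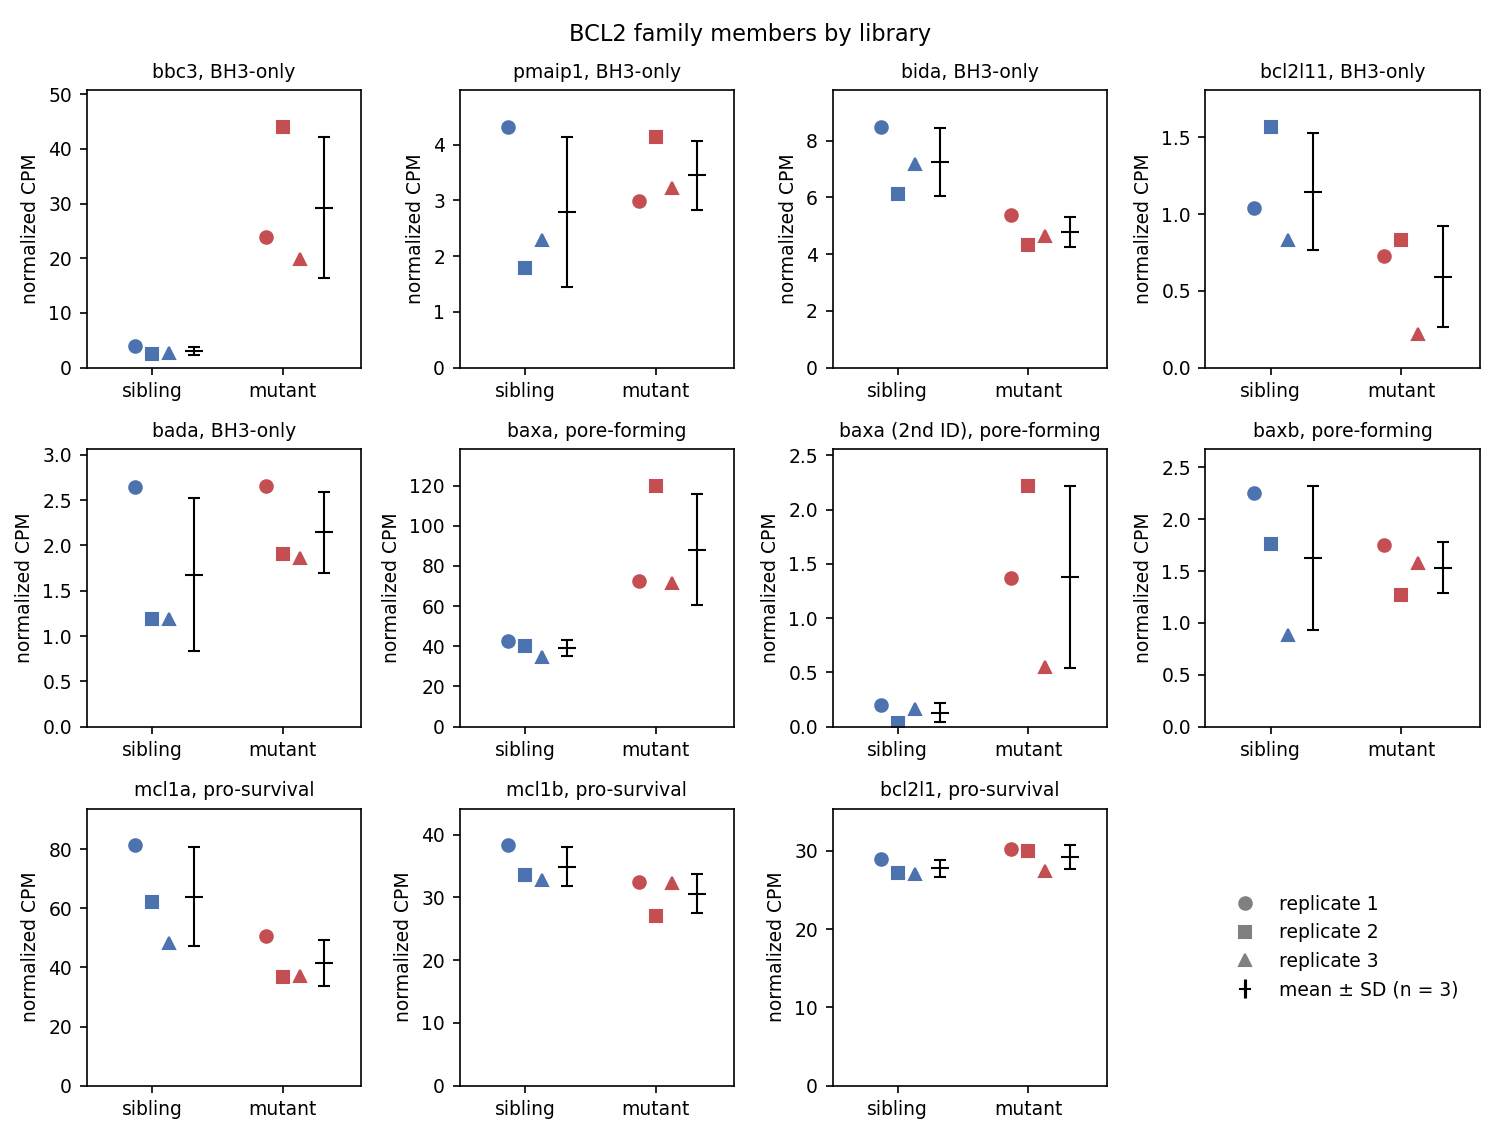
Normalized CPM (vertical axes from 0, scaled per gene) of the 11 gene IDs in 3 sibling and 3 mutant libraries; the symbol shape gives the replicate number and the black bars the mean ± SD (n = 3 per group). The *bbc3* points of the mutants lie between 19.9 and 44.1, above all siblings, while those of *pmaip1*, *bada* and *bcl2l1* intermingle.

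Among the BH3-only genes, *bbc3* (ENSDARG00000069282, chromosome 15, minus strand) encodes Puma, which binds all of the main pro-survival proteins. It was at 3.91, 2.49 and 2.65 normalized CPM in sibling replicates 1, 2 and 3, and at 23.9, 44.1 and 19.9 in mutant replicates 1, 2 and 3. The groups were far apart. The values rest on about 51 to 136 reads in the siblings and 364 to 1705 in the mutants. The mean went from 3.02 ± 0.778 to 29.3 ± 12.96 (SD, n = 3 per group), a 9.71-fold ratio of means. On the log2(value + 1) scale the log2 fold change was 2.85 (SE 0.29, 95% interval 2.19 to 3.51, limma adjusted p = 0.00664). The added 1 shrinks fold changes of genes with low values, and with a pseudocount of 0.1 that of *bbc3* was 3.18. *bbc3* was 10th of 21769 genes by log2 fold change and 24th by p.

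The call of *bbc3* held with the replicate block (limma adjusted p = 0.000518), with a pseudocount of 0.1 (0.0181), with both together (0.0381), and in each of the 6 fits that left out a library (0.00716 to 0.0488). Within same-number pairs the log2 ratio was 2.34, 3.69 and 2.52. In replicates 1 and 2 alone, 4 libraries, *bbc3* did not pass (limma adjusted p = 0.0896), and 0 of 21769 genes did (4236 at an unadjusted p under 0.05).

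*pmaip1* (ENSDARG00000089307, chromosome 10, plus strand) encodes Noxa, which in mammals binds chiefly MCL1. It was at 4.32, 1.78 and 2.28 normalized CPM in the siblings and 2.98, 4.14 and 3.22 in the mutants. The highest value of all 6 was in sibling replicate 1, and the groups overlapped. Its log2 fold change was 0.28 (SE 0.25, 95% interval -0.29 to 0.84, limma adjusted p = 0.564), with an upper bound below the lower bound of *bbc3*, though the difference between these genes was not itself tested. Within pairs the log2 ratio was -0.42, 0.89 and 0.36.

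*bida* (ENSDARG00000069290, chromosome 18, plus strand) encodes Bid, which is activated when caspase-8 cleaves it and so ties death receptors to the mitochondrion. It was at 8.49, 6.11 and 7.16 normalized CPM in the siblings and 5.37, 4.32 and 4.64 in the mutants. Every mutant library was below every sibling library. The log2 fold change was -0.51 (SE 0.16, 95% interval -0.87 to -0.14), which did not pass (limma adjusted p = 0.132) and passed with the replicate block (limma adjusted p = 0.0333). It missed the threshold again when the block was joined with a pseudocount of 0.1 (limma adjusted p = 0.0983). Its log2 ratio was alike in the 3 pairs, at -0.58, -0.42 and -0.53.

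*bcl2l11* (ENSDARG00000079144, chromosome 13, minus strand) encodes Bim, a BH3-only protein with broad binding to pro-survival relatives. It was low, at 1.04, 1.57 and 0.83 normalized CPM in the siblings and 0.73, 0.83 and 0.22 in the mutants. The value of mutant replicate 3 rests on about 4 reads, and the groups met at 0.83. Its log2 fold change was -0.44 (SE 0.20, 95% interval -0.91 to 0.03, limma adjusted p = 0.268; 0.0623 with the replicate block).

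*bada* (ENSDARG00000087993, chromosome 21, plus strand) encodes Bad, a BH3-only protein that growth factor signalling keeps inactive by phosphorylation. It was at 2.65, 1.19 and 1.19 normalized CPM in the siblings and 2.66, 1.91 and 1.86 in the mutants. Replicate 1 was the highest of each group, and sibling replicate 1 stood within the range of the mutants. A log2 fold change of 0.27 (SE 0.23, 95% interval -0.25 to 0.79) did not pass (limma adjusted p = 0.548).

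Of the pore-forming genes, *baxa* (ENSDARG00000020623, chromosome 3, minus strand) encodes Bax, which oligomerises in the outer mitochondrial membrane. It was at 42.5, 40.2 and 34.8 normalized CPM in the siblings and 72.6, 120.0 and 71.5 in the mutants. All mutants were above all siblings, and mutant replicate 2 was again the highest. The mean went from 39.1 ± 3.94 to 88.0 ± 27.7 (SD, n = 3 per group), a 2.25-fold ratio. On the log2(value + 1) scale the log2 fold change was 1.11 (SE 0.22, 95% interval 0.61 to 1.61), with a limma adjusted p of 0.0502 that just missed the threshold.

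The call of *baxa* depended on the fit. It passed with the replicate block (limma adjusted p = 0.00658), with a variance trend (0.0328), with libraries centred on their medians (0.0469) and without mutant replicate 1 (0.0308). It did not pass with a pseudocount of 0.1 (0.0992), with that and the block (0.0797), or when any of the other 5 libraries was left out (highest without sibling replicate 2, at 0.185). Within pairs the log2 ratio was 0.76, 1.56 and 1.02.

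A second ID with the symbol *baxa* (ENSDARG00000089129) lies on the same chromosome and strand. It was at 0.20, 0.03 and 0.16 normalized CPM in the siblings, about 11 reads in all 3 libraries together, and at 1.37, 2.22 and 0.55 in the mutants, about 143 reads. It held 0.0747% to 0.469% of the values of both IDs in the siblings and 0.763% to 1.85% in the mutants, so the groups did not overlap in this share either. Its log2 fold change on the log2(value + 1) scale was 1.01 (SE 0.25, limma adjusted p = 0.0837). With the replicate block the limma adjusted p was 0.0189, and 0.0909 when that was joined with a pseudocount of 0.1. At values this low the added 1 holds the fold change down. The ratio of means was 10.6, and with a pseudocount of 0.1 the log2 fold change was 2.59, both resting on few sibling reads. The Ensembl name table held 10 of the 11 member IDs and not this one. Whether the 2 gene models share reads was not tested, and the strand setting is not given in the sources used here.

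*baxb* (ENSDARG00000030881, chromosome 3, minus strand), a paralogue of *baxa*, was at 2.25, 1.76 and 0.88 normalized CPM in the siblings and 1.75, 1.27 and 1.58 in the mutants. The siblings spanned the mutants on both sides. Its log2 fold change was -0.02 (SE 0.21, 95% interval -0.51 to 0.47, limma adjusted p = 0.967), an interval whose upper bound is below the lower bound of *baxa*, and its sign turned in 3 of the 6 fits that left out a library. The added 1 shrinks fold changes more at the low values of *baxb* than at those of *baxa*, so these bounds are not on equal terms. With a pseudocount of 0.1 the log2 fold changes were -0.003 for *baxb* and 1.13 for *baxa*. The difference between *baxa* and *baxb* was not itself tested.

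Of the pro-survival genes, *mcl1a* (ENSDARG00000009779, chromosome 19, plus strand) encodes one of the Mcl-1 proteins, which in mammals are short-lived and hold BAX-type proteins and BH3-only proteins in check. It was at 81.6, 62.2 and 48.2 normalized CPM in the siblings and 50.5, 36.8 and 37.0 in the mutants. Mutant replicate 1 lay above sibling replicate 3, and this alone made the groups overlap. The mean went from 64.0 ± 16.7 to 41.4 ± 7.85 (SD, n = 3 per group). The log2 fold change was -0.60 (SE 0.22, 95% interval -1.11 to -0.09), which did not pass (limma adjusted p = 0.177).

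With the replicate block *mcl1a* passed as lower (limma adjusted p = 0.0254), and it did not when a pseudocount of 0.1 was used as well (limma adjusted p = 0.104). Within pairs the mutant was lower each time, by log2 ratios of -0.68, -0.74 and -0.37. No fit that left out a library called it (limma adjusted p from 0.0946 to 0.481).

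*mcl1b* (ENSDARG00000008363, chromosome 16, plus strand), the other Mcl-1 gene, was at 38.4, 33.5 and 32.8 normalized CPM in the siblings and 32.5, 27.0 and 32.3 in the mutants. The groups did not overlap, but mutant replicates 1 and 3 were close to the lowest sibling. Its log2 fold change was -0.19 (SE 0.15, 95% interval -0.52 to 0.15, limma adjusted p = 0.509). *bcl2l1* (ENSDARG00000008434, chromosome 23, minus strand), which encodes Bcl-xL, had the smallest SE of the members and was at 29.0, 27.2 and 27.1 in the siblings and 30.2, 30.0 and 27.5 in the mutants. The groups overlapped, and the log2 fold change was 0.07 (SE 0.13, 95% interval -0.22 to 0.37, limma adjusted p = 0.797).

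**Figure D2:**
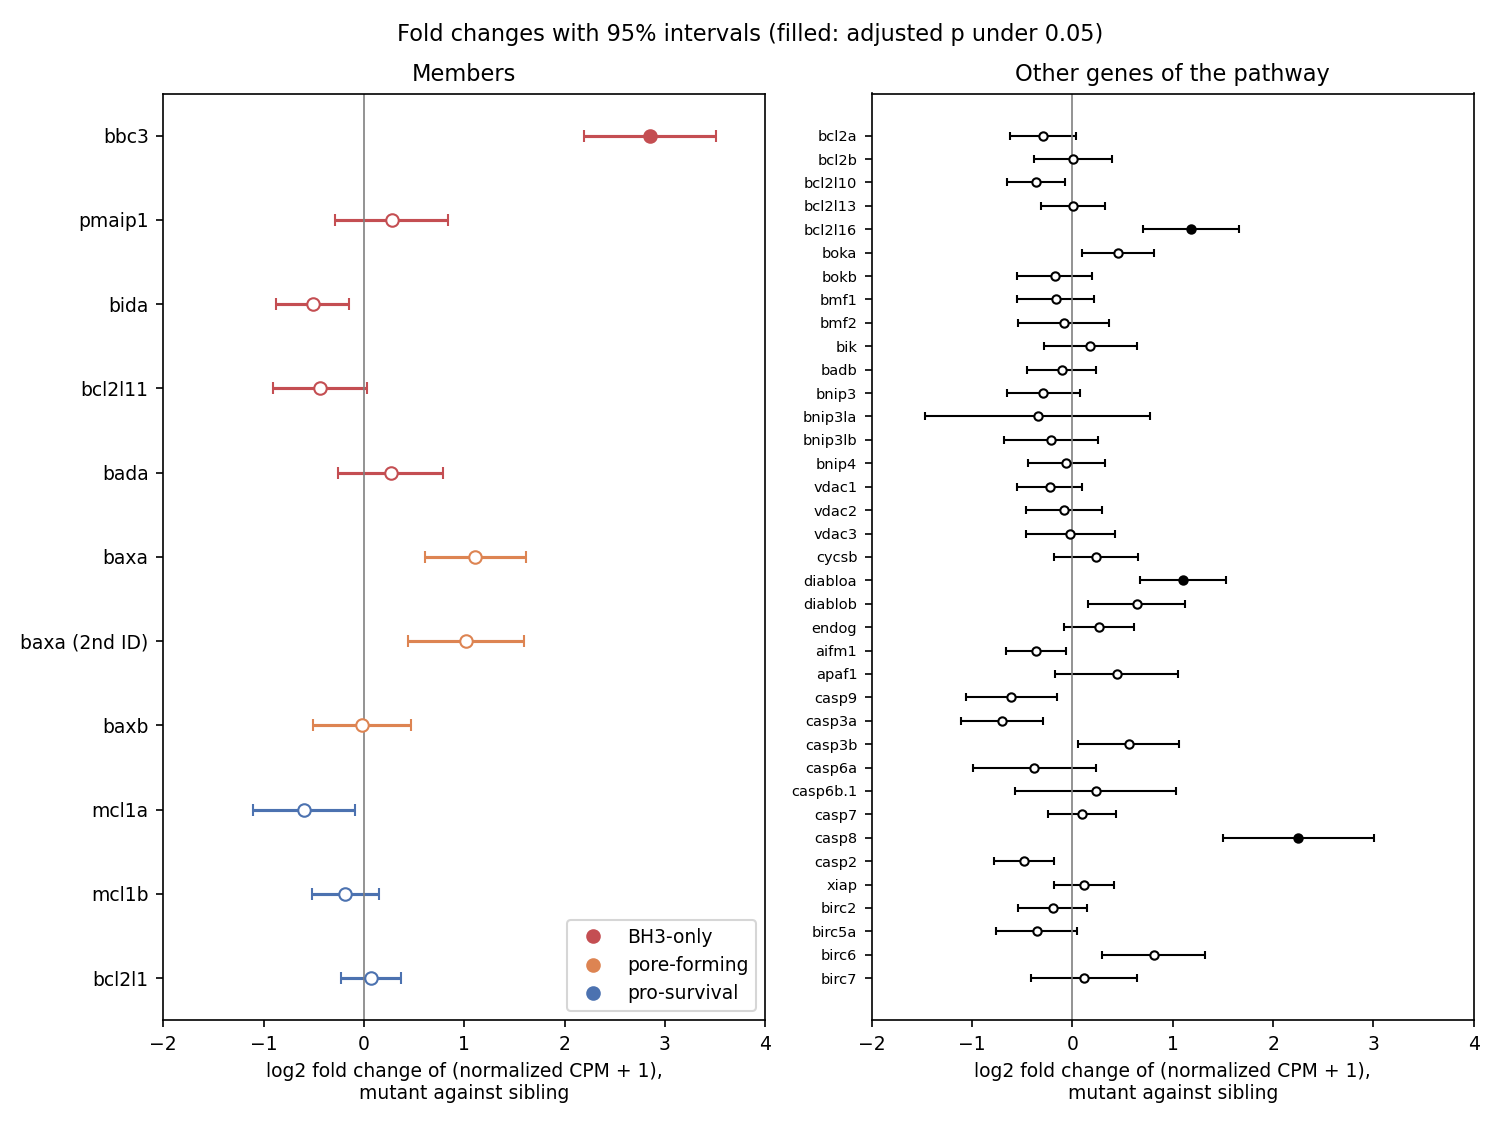
Log2 fold change of (normalized CPM + 1), mutant against sibling, with 95% intervals from limma, for the 11 member IDs by role (left) and 37 other genes of the pathway (right); filled points passed an adjusted p of 0.05. *bbc3* at 2.85 is the filled point among the members, and *casp8*, *bcl2l16* and *diabloa* are the filled points of the pathway.

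Set beside each other, the 7 pro-death genes had a mean log2 fold change of 0.51 and a median of 0.27, and the 3 pro-survival genes a mean of -0.24 and a median of -0.19 (each gene by its ID of higher level). Against the sibling mean, the pro-death mean minus the pro-survival mean was 0.09, -0.06 and -0.03 in sibling replicates 1, 2 and 3, and 0.61, 1.01 and 0.61 in the mutants. This difference averaged 0.74 ± 0.23 in the mutants (SD, n = 3). It was lower without *bbc3*, at 0.35 ± 0.16, and at 0.15 without *bbc3* and *baxa*. Without these 2 genes the remaining pro-death members averaged -0.08, so the higher pro-death mean came from *bbc3* and *baxa*. These means describe the 10 chosen genes and were not tested.

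Over the 3 same-number pairs, 4 members were higher each time (*bbc3*, *baxa*, *bada* and *bcl2l1*), 4 were lower each time (*bida*, *bcl2l11*, *mcl1a* and *mcl1b*) and 2 changed sign (*pmaip1* and *baxb*). For *bada* in pair 1 the log2 ratio was 0.004, and for *mcl1b* in pair 3 it was -0.02. The share of all genes with the same sign in every pair was not counted. These counts therefore cannot be read as particular to the members. The pro-death minus pro-survival difference was 0.52, 1.07 and 0.64 in pairs 1, 2 and 3, and 0.17, 0.58 and 0.31 without *bbc3*.

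**Figure D3:**
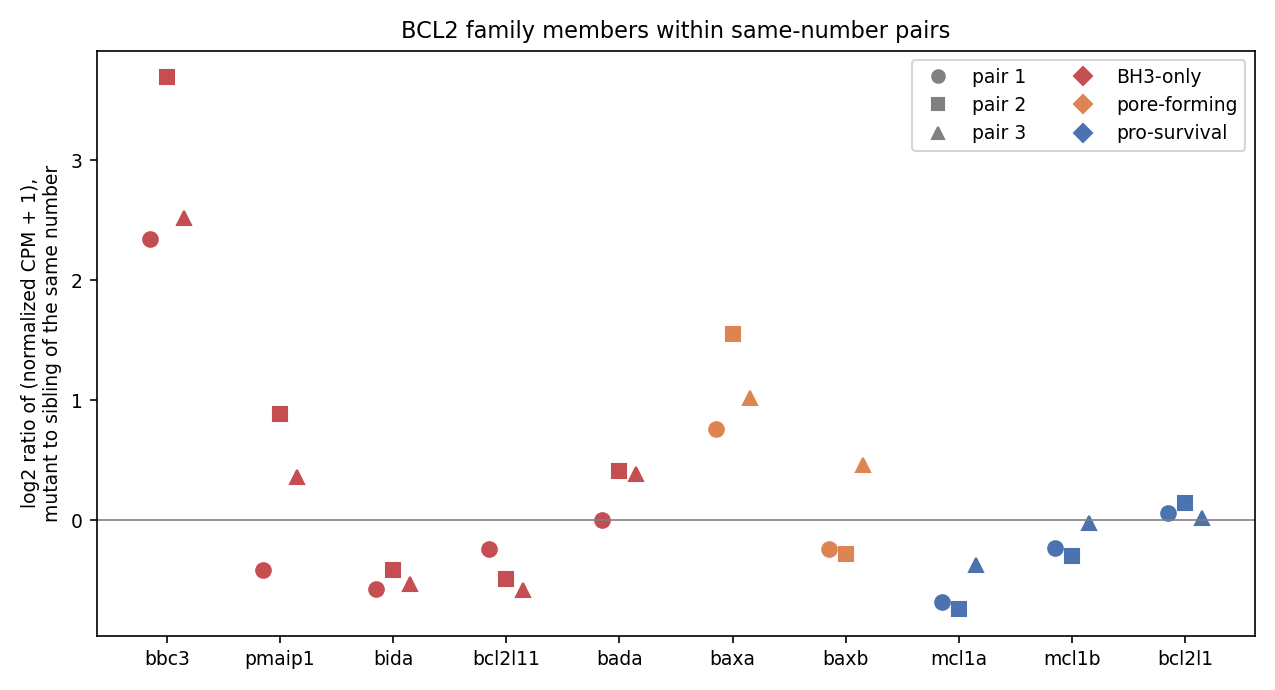
Log2 ratio of (normalized CPM + 1) of each mutant library to the sibling library of the same number (vertical axis) for the 10 members, with shapes for pairs 1 to 3 and colours for roles. *bbc3* lies between 2.34 and 3.69 in the 3 pairs and *baxa* between 0.76 and 1.56, while *mcl1a* and *bida* lie below 0 in each pair.

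Mutant replicate 2 had the highest *bbc3* and *baxa*, and also the highest *mdm2*. That gene, which encodes a ubiquitin ligase, was at 39.5, 38.1 and 32.1 normalized CPM in the siblings and 206, 392 and 186 in the mutants (log2 fold change 2.73, SE 0.27, limma adjusted p = 0.00664). The mutants rank alike for *bbc3*, *mdm2*, *baxa* and *dhx38*, with replicate 2 first, replicate 1 next and replicate 3 last. For *baxa*, replicates 1 and 3 were close, at 72.6 and 71.5. Depth had the same order, at 37.7, 32.1 and 19.5 M reads, and the share of all genes with this order was not counted. Of the 10 members, 4 were highest in mutant replicate 2, and *bida*, *bada*, *baxb*, *mcl1a*, *mcl1b* and *bcl2l1* were highest in mutant replicate 1. *dhx38* itself was at 33.8, 33.8 and 27.3 in the siblings and 57.2, 90.4 and 53.1 in the mutants (limma adjusted p = 0.0630; 0.00664 with the replicate block, and 0.0789 when a pseudocount of 0.1 was joined to it).

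Across the 6 libraries, the 5 genes with a proper symbol whose log2(value + 1) followed *bbc3* most closely by Pearson r were *gbf1* (0.999), *rnf169* (0.998), *fnip1* (0.997), *nckap5l* (0.997) and *rbl2* (0.996), out of 18591 genes at or above 1 normalized CPM in at least 3 libraries. Loci with clone or placeholder symbols were passed over. Counting these, *rbl2* was 7th and *mdm2* 9th (0.996). The 6 points fall into 2 groups and share their libraries and depths, so r is high for any gene that separates the groups and ranks the mutants alike. It says nothing of size: *gbf1* had a log2 fold change of 0.52 and *rbl2* one of 3.51 (limma adjusted p = 0.0843 and 0.00486). With the replicate block *gbf1* passed (limma adjusted p = 0.0327), and it did not when a pseudocount of 0.1 was used as well (0.109).

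**Figure D4:**
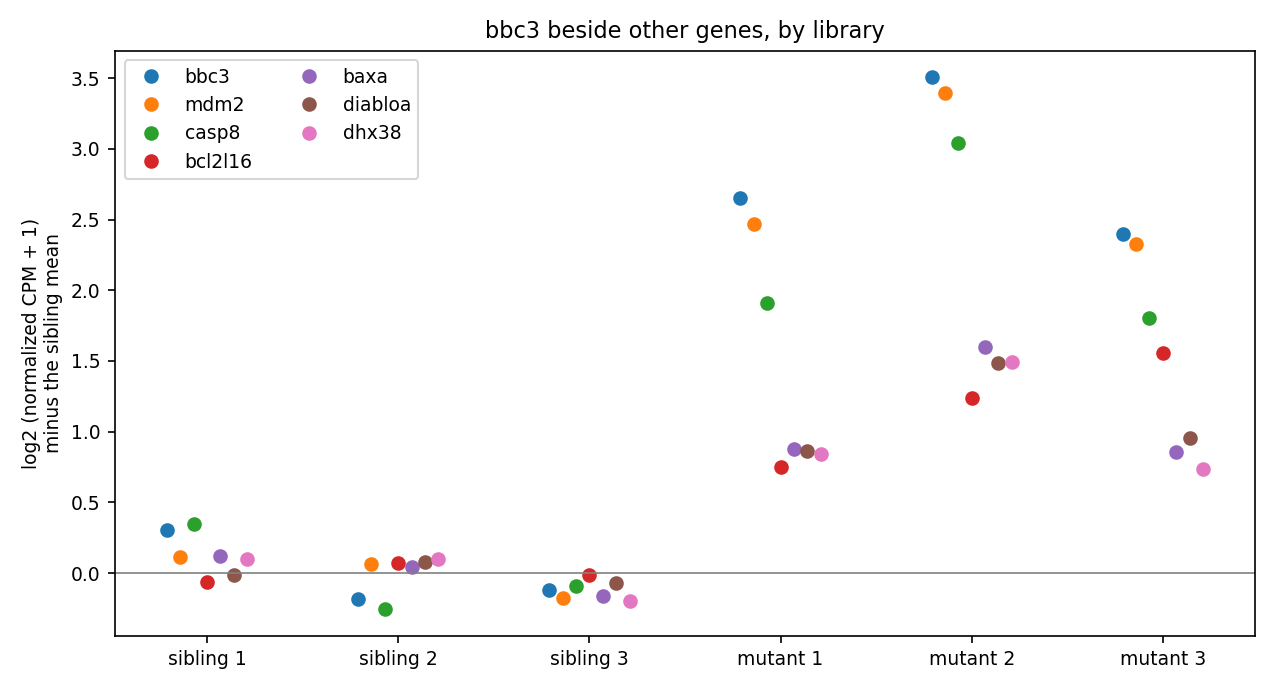
Log2(normalized CPM + 1) minus the sibling mean (vertical axis) in each of the 6 libraries for *bbc3*, *baxa*, *mdm2*, *dhx38* and the 3 called genes of the pathway list; points are spread sideways for legibility. In the mutants *bbc3* is at 2.65, 3.51 and 2.40, and replicate 2 is the highest mutant library for each gene shown except *bcl2l16*.

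Of 48 symbols listed for other genes of the mitochondrial death pathway, 37 were measured. Symbols not found were counted as not measured, whether or not the gene stands under another name. With limma 3 rose and 0 fell, where 1.41% of all genes passed as higher and 0.285% as lower. At an unadjusted limma p under 0.05, 7 were higher and 5 lower, where 10.2% and 10.7% of all genes were. The other 34 did not pass the adjusted threshold, and the median log2 fold change of the 37 was -0.06. With the replicate block 5 rose and 3 fell, where 6.85% of all genes passed as higher and 6.87% as lower. When a pseudocount of 0.1 was used as well, limma called 0 (16 had an unadjusted p under 0.05) and passed 0.776% of all genes. In that fit 5988 of all 21769 genes had an unadjusted limma p under 0.05. Groups did not overlap for 14 of the 37, 7 higher and 7 lower, where 27.1% of all genes did not.

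Among other BCL2 family genes 1 of 15 rose. *bcl2l16* was at 2.79, 3.16 and 2.91 normalized CPM in the siblings and 5.66, 8.30 and 10.6 in the mutants, with no overlap (log2 fold change 1.18, SE 0.21, limma adjusted p = 0.0367). The pro-survival genes *bcl2a* (4.07 in siblings and 3.12 in mutants) and *bcl2l10* (44.5 and 34.3) had lower means and did not pass (limma adjusted p = 0.288 and 0.161). The mean of *bcl2b*, the paralogue of *bcl2a*, was about level, at 1.70 and 1.71 (limma adjusted p = 0.989). *boka*, of the pore-forming Bok type, was at 7.78 and 10.99 (limma adjusted p = 0.155). Its paralogue *bokb* had a lower mean in mutants, at 1.12 and 0.86, and overlapped between groups (limma adjusted p = 0.582). The BH3-only genes *bmf1*, *bmf2*, *bik* and *badb* overlapped between groups, with log2 fold changes from -0.17 to 0.18.

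Downstream of the pore, 1 of 8 genes of release rose. *diabloa*, whose product frees caspases from their inhibitors, was at 7.83, 8.40 and 7.48 normalized CPM in the siblings and 15.2, 23.9 and 16.2 in the mutants (limma adjusted p = 0.0346). *diablob*, the other Diablo gene, had a mean of 17.8 normalized CPM in siblings and 28.5 in mutants, with no overlap. It missed the threshold by limma (adjusted p = 0.144) and passed once the replicate block was fitted (0.0353). After a pseudocount of 0.1 was added to the block it did not pass (0.123). *aifm1* had a lower mean in mutants (68.6 against 88.3), also without overlap. It did not pass without the block (limma adjusted p = 0.170) or with it (0.0893). The mitochondrial channel genes *vdac1*, *vdac2* and *vdac3* and the cytochrome c gene *cycsb* overlapped between groups, with log2 fold changes from -0.23 to 0.23. Of 9 apoptosome and caspase genes, *casp8*, the initiator caspase of death receptors that cleaves Bid, rose from 6.13, 3.70 and 4.26 to 20.1, 45.1 and 18.6 (log2 fold change 2.25, SE 0.33, limma adjusted p = 0.0222). It passed with a pseudocount of 0.1 (0.0488), not with that and the block (0.0688), and in 3 of the 6 fits with a library left out (highest without sibling replicate 2, at 0.105). *bcl2l16* and *diabloa* passed in 1 of those 6 fits, without mutant replicate 1, and not with a pseudocount of 0.1 (0.0640 and 0.0644).

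The other 8 genes of the apoptosome and caspases did not pass. *casp9*, the apoptosome's initiator caspase, was at 5.17 ± 1.09 normalized CPM in siblings and 3.05 ± 0.826 in mutants, and the executioner *casp3a* at 63.7 ± 2.09 and 39.5 ± 8.90 (SD, n = 3 per group). Neither passed (limma adjusted p = 0.140 and 0.0881), and both fell with the replicate block (0.0196 and 0.0240), as did *casp2* (0.0422). With a pseudocount of 0.1 joined to the block, none of these passed. The limma adjusted p was then 0.0808 for *casp9*, 0.108 for *casp3a* and 0.114 for *casp2*. *casp3b* had a higher mean, at 27.1 ± 1.38 and 41.7 ± 13.5, and did not pass (limma adjusted p = 0.202). Of 5 inhibitors of caspases limma called 0 (1 was higher at an unadjusted p under 0.05), and *birc6* (112.6 and 205) rose with the replicate block (limma adjusted p = 0.0265). With a pseudocount of 0.1 joined to the block, *birc6* did not pass (limma adjusted p = 0.119).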

How the data were processed

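Per the column names, the deposited signal is normalized CPM per gene, with 2 decimals. Columns sum to 935758 to 1067460, so it is not plain CPM, and the scaling factors used by the authors are not stated. Per the submitters' processing notes, the build was GRCz11 and the tools included edgeR, featureCounts, STAR and fastp, with no versions or roles. The 956 rows of a shorter deposited table were not used.

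Groups and replicate numbers come from sample titles. log2(value + 1) was fitted with limma 3.58.1 (R 4.3.3; lmFit, eBayes, default settings) over all 21769 genes and no filter, after a test on simulated data. Members, lists and tests were chosen with earlier results of these data known. Named genes were the members, *mdm2*, *dhx38*, called genes of the pathway list and the 5 genes most like *bbc3*, passing over clone or placeholder symbols. Of the genes the rule names 1 is not reported here. Other pathway genes and caspases were named after their values were seen.

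The value of 1 read was found from the spacing of low values. In 4 of 6 libraries too few low values lay within 0.1 of a read of a whole number, so the planned count tests were not run. Deviations from group means correlated between same-number libraries (r of 0.46, 0.45 and 0.59 for numbers 1, 2 and 3), above the bound of 0.1, so the numbers were taken to pair the libraries. Among libraries of different number, sibling replicate 2 and mutant replicate 1 were also above the bound (r of 0.16). The bound alone thus does not single out same-number pairs. The other values were negative. Deviations from a group mean sum to 0 over the libraries of the group, so positive same-number values force negative ones elsewhere. The negative values are therefore no separate support for the pairing. The labels of replicate 3 of both groups refer to a gene key of their own; a shared origin and a shared batch cannot be told apart. Sequences were not used here.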

Additional observations from a re-analysis of the deposited data

How the results depend on the processing

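Counted by gene ID, the 1 member called became 5 with the replicate block and 5 with a variance trend on top of the block. Both of these counts hold *baxa* under its 2 IDs. The count was 2 with a variance trend, 2 with centred libraries, and 0 in replicates 1 and 2 only (limma, 5 at an unadjusted p under 0.05). Both counts of 2 were *bbc3* and *baxa*. Over the whole table, the variance trend called 482 genes and centred libraries 403, against 370 in the main fit. Leaving out single libraries gave 1 to 2. The 3 pathway genes called became 8 with the block, 12 with a variance trend on top of the block, 1 with a pseudocount of 0.1, 0 with that and the block (16 unadjusted), 0 in replicates 1 and 2 (9 unadjusted) and 0 at an adjusted p under 0.01. Leaving out single libraries gave 0 to 4. The 370 genes called over the whole table became 2986 with the block and 3800 with a variance trend on top of the block. They became 205 with a pseudocount of 0.1 and 169 with that and the block (5988 unadjusted). The number was 0 in replicates 1 and 2 (4236 unadjusted), 41 at an adjusted p under 0.01, and 31 to 1731 without single libraries. At a pseudocount of 1 the share of higher calls was thus lower with the block (1491 of 2986) than without it (308 of 370). At a pseudocount of 0.1, 156 of 169 calls were higher with the block and 190 of 205 without it.

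The pro-death minus pro-survival difference was 0.61 to 0.81 without single libraries and 0.35 without *bbc3*, an alternative chosen after seeing the data. The sign of *baxb* turned without sibling replicate 1 (log2 fold change 0.15, limma adjusted p = 0.803), sibling replicate 2 (0.03, 0.970) and mutant replicate 2 (0.05, 0.951). Over all 6 fits that left out a library, its limma adjusted p was 0.488 to 0.970. The other members and *mdm2* and *dhx38* kept their direction in each alternative run. Why a call changed was not tested. The fit of replicates 1 and 2 held fewer libraries and also left out the shallower replicate of each group. It therefore cannot tell library number from depth. The count tests listed as alternatives were not run. Depth limits *bcl2l11*, *baxb*, *bada* and the second *baxa* ID most.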
